A study of Mus musculus with 6 samples.

Results

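The S100 genes encode small calcium-binding proteins of vertebrates. Here 8 of them were followed in macrophages of the injured mouse sciatic nerve: S100a1, S100a4, S100a6, S100a8, S100a9, S100a10, S100a11 and S100a13. They were taken by symbol from tables of 24822 genes, of which 11354 had enough counts to be tested, all 8 members among them. The tables hold 18 rows whose symbol starts with S100, so 10 other S100 rows were left beside the members.

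The cells came from C57BL/6 mice of the genotype Macblue x Cx3cr1egfp/+, and every library of both groups carries both alleles. Nerves were taken 14 days after CCI, the injury named in the labels, on the injured side, and no uninjured nerve is compared. All cells were sorted as CD64+ CD11b+ SiglecF- Ly6G-. Resident macrophages were sorted by EGFP and recruited ones by ECFP, with 3 libraries in each group. A library was made from the pooled nerves of 3 mice and about 400 cells. No age of the mice was found in the labels. A reporter color stands in for origin, so cells of the other origin within a gate cannot be told apart by these labels.

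S100 proteins carry a pair of EF-hand loops, the fold that binds calcium in calmodulin, and most work as dimers. When calcium enters a cell they open a surface that grips target proteins, such as annexins at membranes and myosin in the cytoskeleton. Several also leave the cell without a signal peptide. S100A8 and S100A9, which join as calprotectin, are stored in neutrophils and monocytes, bind zinc and manganese, and act on Toll-like receptor 4. S100A10 is the exception of the family, because it has lost the ability to bind calcium and is held in a complex with annexin A2.

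All 8 members lie on mouse chromosome 3 (GENCODE M21, GRCm38, the mm10 sequence). S100a1 spans 90511034 to 90514392 on the minus strand, and S100a13 starts 42 bases further, at 90514435, on the plus strand, so the genes stand head to head. S100a4 spans 90603771 to 90606045, S100a6 90612882 to 90624181, S100a8 90668978 to 90670035 and S100a9 90692632 to 90695721. S100a11 at 93520488 to 93526287 and S100a10 at 93555080 to 93564643 stand apart from these, 2824766 bases beyond S100a9. S100a4 shares 302 exon bases with the gene model Gm42674 on its own strand. No other member overlaps an annotated gene.

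Promoter sequences are shown for the calprotectin genes S100a8 and S100a9, for S100a4, and for the stretch between S100a1 and S100a13. They are the 250 bases before the RefSeq start (GRCm38.p6), and for the head-to-head genes the 104 bases between both RefSeq starts. RefSeq starts can differ from the GENCODE spans above. The S100a8 window runs into the S100a8 span given there, and the 104-base stretch runs into that of S100a1. Capitals mark TATAAA in S100a4 and S100a8, and TTGCNNAA and GGGCGG in S100a9. The intervals are chr3:90603520-90603769 (plus strand) for S100a4, chr3:90668821-90669070 (plus strand) for S100a8, chr3:90695722-90695971 (minus strand) for S100a9 and chr3:90514331-90514434 (plus strand) for S100a13 with S100a1.
S100a4: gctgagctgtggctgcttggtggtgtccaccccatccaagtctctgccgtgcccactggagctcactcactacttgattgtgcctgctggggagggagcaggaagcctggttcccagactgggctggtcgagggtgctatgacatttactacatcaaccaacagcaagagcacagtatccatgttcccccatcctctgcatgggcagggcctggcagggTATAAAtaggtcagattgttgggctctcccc
S100a8: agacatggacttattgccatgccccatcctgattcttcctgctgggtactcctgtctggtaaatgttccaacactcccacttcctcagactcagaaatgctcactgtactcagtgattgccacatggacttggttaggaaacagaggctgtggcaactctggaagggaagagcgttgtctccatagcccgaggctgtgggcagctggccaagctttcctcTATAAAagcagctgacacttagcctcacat
S100a9: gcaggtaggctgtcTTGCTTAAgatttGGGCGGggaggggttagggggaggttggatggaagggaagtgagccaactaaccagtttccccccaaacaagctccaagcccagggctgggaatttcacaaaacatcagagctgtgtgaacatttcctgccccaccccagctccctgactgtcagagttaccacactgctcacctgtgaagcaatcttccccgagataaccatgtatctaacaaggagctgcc
S100a13 and S100a1: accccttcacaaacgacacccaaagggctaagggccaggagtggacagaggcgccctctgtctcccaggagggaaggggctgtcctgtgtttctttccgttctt

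RefSeq promoter entries matched 7 of the 8 members, all but S100a10. Both strands of the 250 bases were searched for the core promoter motif TATAAA, the AP-1 motif TGANTCA, the GC-box motif GGGCGG and the C/EBP motif TTGCNNAA. TATAAA began 31 bases before the start of S100a4 and 30 bases before that of S100a8, and 12.4% of 32851 promoters hold it somewhere. S100a11 held TGANTCA 2 times and GGGCGG 3 times, motifs present in 6.75% and 32.7% of promoters, with no overlap between its matches. S100a9 held a GGGCGG and a TTGCNNAA, the latter present in 9.56% of promoters. The windows of S100a1, S100a6 and S100a13 held none of the 4 motifs. These matches describe the letters and not binding.

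The libraries held 16668691 to 27510960 expected counts, with 11436 to 13069 genes at 1 count or more. Macrophage markers were read in every library, with Lyz2 and C1qb the highest by mean FPKM over the 6 libraries. In the recruited libraries Cd68 stood above C1qb, with means of 2461 and 1480 FPKM. Of the 12 listed, 11 were in the table and tested, and 3 passed the test: the complement genes C1qa, C1qb and C1qc, higher in resident cells (log2 differences -1.94, -1.44 and -1.59, edgeR adjusted p = 0.00869, 0.0184 and 0.0184). Adjusted p went up to 0.0560 for C1qa, which no longer passed without recruited replicate 1 or 2. It went up to 0.123 for C1qb, which passed only without resident replicate 1 among fits that leave out a library, and for C1qc, which passed only without resident replicate 1 or recruited replicate 3. Some listed markers of other cells were at 0 in every library. These were 3 of 18 for neutrophils (Ly6g, Ngp and Mpo) and 3 of 12 for Schwann cells, Sox10 among them. So were 1 of 10 for fibroblasts (Pdgfra) and 3 of 5 for mast cells or basophils, Cpa3 among them. The other markers of these lists had counts in at least 1 library, and sums for neutrophils, Schwann cells and fibroblasts are given below. Summed CPM of the lists stood at 131 to 631 in resident and 74.4 to 218 in recruited libraries for 10 dendritic cell markers, led by Cd209a in every library. Those for T and NK cells, endothelial cells, eosinophils, B cells and mast cells or basophils were at most 17.3 CPM in any library, and no gene of these 6 lists passed. Levels of a gene across libraries are given as CPM, counts scaled to library size with TMM factors, and levels between genes as FPKM, the deposited values that also divide by transcript length. Differences are on the log2 scale as recruited minus resident, so a gene with more counts in resident cells has a negative value. A gene passed the test at an adjusted p under 0.05 in edgeR's quasi-likelihood test over all tested genes. In bulk samples, fewer cells that carry a transcript and less of it per cell cannot be told apart.

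S100 transcripts were plentiful in both populations. The 8 members together made up 0.197, 0.250 and 0.237% of the counts in the resident libraries, in order of replicate, and 0.183, 0.168 and 0.163% in the recruited ones. The 2 ranges did not overlap in counts, and the resident libraries were higher. As a share of summed FPKM they overlapped, at 0.665, 0.759 and 0.726% in resident and 0.678, 0.622 and 0.591% in recruited libraries. Per length, S100a10 led with a median of 1122 FPKM over the 6 libraries, followed by S100a6 at 1039, S100a11 at 993 and S100a4 at 941 FPKM. S100a1 at 288, S100a8 at 246 and S100a13 at 177 FPKM formed a middle tier, and S100a9 was lowest at 19.97 FPKM.

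Within each tier the order was not firm. The range of S100a10 over the libraries overlapped that of S100a6, that of S100a6 overlapped that of S100a11, and S100a11 exceeded S100a4 in 3 of 6 libraries. S100a1 exceeded S100a8 in 4 of 6 libraries, and S100a8 exceeded S100a13 in 4 of 6. The steps from S100a4 to S100a1 and from S100a13 to S100a9 held in all 6 libraries without overlap. S100a10 ranked between 54 and 83 among all genes by FPKM, while S100a9 ranked between 2877 and 6046. S100a8 and S100a9 were also the most variable members, with the highest library 3.67-fold and 4.06-fold above the lowest in CPM, against 1.55-fold to 2.32-fold for the other 6.

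**Figure D1:**
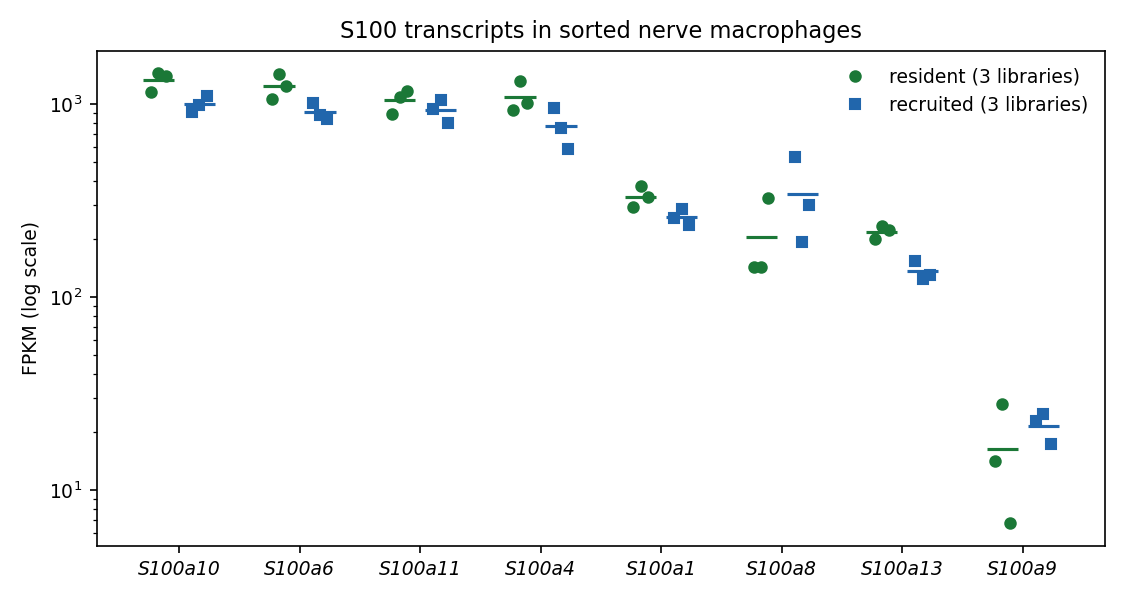
FPKM of each S100 gene (log scale) in the 3 resident libraries (circles) and the 3 recruited libraries (squares), with horizontal lines at group means, in order of the median over the 6 libraries. The 4 genes on the left stand between 585 and 1439 FPKM in every library, and S100a9 on the right stands between 6.74 and 27.9 FPKM.

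None of the 8 members passed the test in edgeR. Of all tested genes 0.317% did, with 0.255% higher in resident and 0.0617% higher in recruited libraries. At an unadjusted p under 0.05 there were 5 members, all higher in resident libraries, against 16.8% of tested genes in either direction and 8.65% in that one. DESeq2, run as an alternative, called 2 members, S100a6 (adjusted p = 0.0498) and S100a13 (adjusted p = 0.00306), where 6.1% of genes were called in either direction and 3.49% as higher in resident cells. The log2 difference was below 0 in 6 members and above 0 in 2, S100a8 and S100a9, with a median of -0.42 against 0.01 over all tested genes, of which 49% lay below 0. In 4 members the resident libraries all lay above the recruited ones in CPM, and in 0 members the reverse, against 12.6% and 12.2% of tested genes, or 24.9% in either direction.

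Transcript length moved with those values. S100 transcripts are short, with effective lengths of 208 to 533 bases as implied by the counts and FPKM, against a median of 2577 bases over 10776 tested genes with a value. In that range lay 333 tested genes, members included, and their median log2 difference was -0.58, with quartiles at -0.77 and -0.39. Longer genes had a median of 0.03. Of the 333 short genes, 92.8% had a log2 difference below 0, 52.9% had an unadjusted p under 0.05 with higher resident values, and in 50.8% the resident libraries lay above the recruited ones without overlap, against 0.3% the other way. In edgeR 0.601% of them passed. Of the 6 members with higher resident means, S100a13 lay below the short-gene median, by 0.13 on the log2 scale, while S100a4, S100a6, S100a10, S100a1 and S100a11 stood above it by 0.03, 0.10, 0.13, 0.20 and 0.35.

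**Figure D2:**
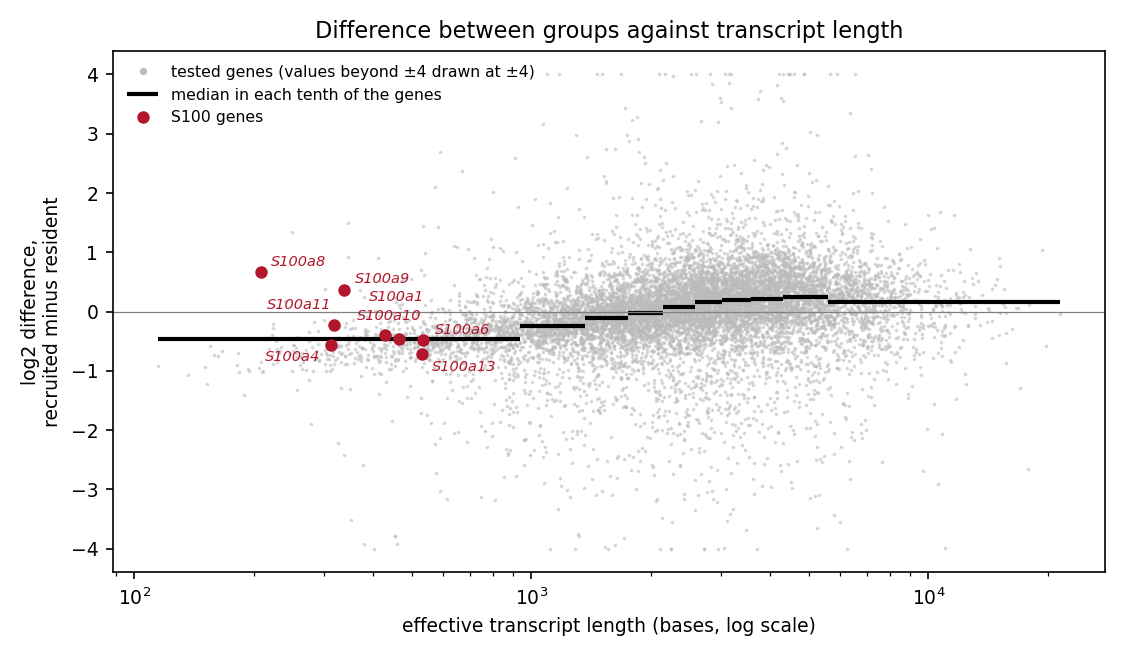
Log2 difference, recruited minus resident, of each tested gene against its effective transcript length in bases (log scale), with the median in each of 10 equal bins of genes as a black line and the S100 genes in red. The medians climb from -0.46 in the bin of shortest genes to 0.24 in bin 9, and S100a8 and S100a9 lie above the other 6 S100 genes.

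The same shift was seen library by library. Relative to the mean of the 6 libraries, the short genes had a median of 0.53 in resident replicate 2 and 0.40 in resident replicate 3 on the log2 CPM scale. They stood at -0.08 in resident replicate 1 and at -0.20, -0.28 and -0.34 in the recruited libraries. The 6 S100 genes with higher resident means had medians of -0.03, 0.43 and 0.30 in the resident replicates, in order. In the recruited replicates their medians were -0.14, -0.25 and -0.33. These 6 were chosen by that direction, so higher resident values were fixed in advance. S100a8 and S100a9, of 208 and 338 bases, were left out. S100a8 was highest in recruited replicate 1 (106 CPM), and S100a9 was highest in resident replicate 2 (9.62 CPM) and lowest in resident replicate 3 (2.37 CPM). Resident replicate 1 lay closer to the recruited libraries than to the other resident ones, for short genes at large as for the 6 S100 genes. Without it, S100a13 passed in edgeR (log2 difference -0.80, adjusted p = 0.0343), and the number of all genes called was 580, or 5% of those tested and 2.81% as higher in resident cells, in place of 36.

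**Figure D3:**
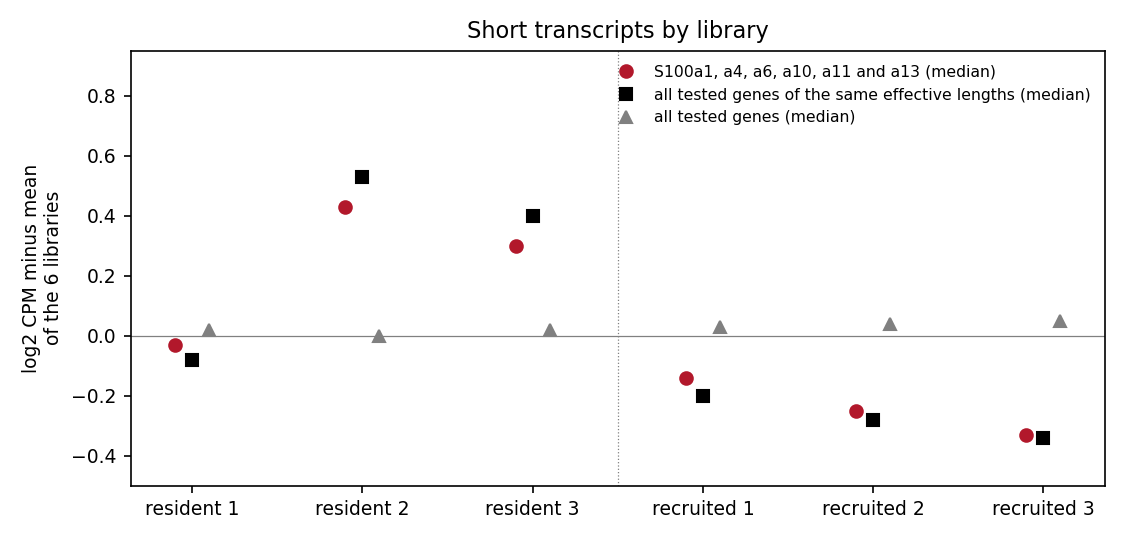
Median log2 CPM minus the mean of the 6 libraries in each library, for 6 S100 genes (red circles), all tested genes of the same effective lengths (black squares) and all tested genes (grey triangles). The medians of the 6 S100 genes (S100a8 and S100a9 left out) and of the short genes stand highest in resident replicates 2 and 3. The median of all tested genes stays between 0.00 and 0.05.

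An edgeR fit with an offset for effective length, chosen after seeing the data, removes the average trend with length by construction. In it, S100a6 had a log2 difference of -0.01 ± 0.10 SE, S100a10 of 0.06 ± 0.13 and S100a4 of 0.07 ± 0.16. S100a1 stood at 0.15 ± 0.12 and S100a11 at 0.39 ± 0.13, so that 4 members changed sign. S100a13 stayed below 0 at -0.25 ± 0.12, while S100a8 stood at 1.40 ± 0.43 and S100a9 at 0.99 ± 0.55. None of the 8 passed in this edgeR fit either (adjusted p from 0.226 for S100a8 to 0.990 for S100a6).

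**Figure D4:**
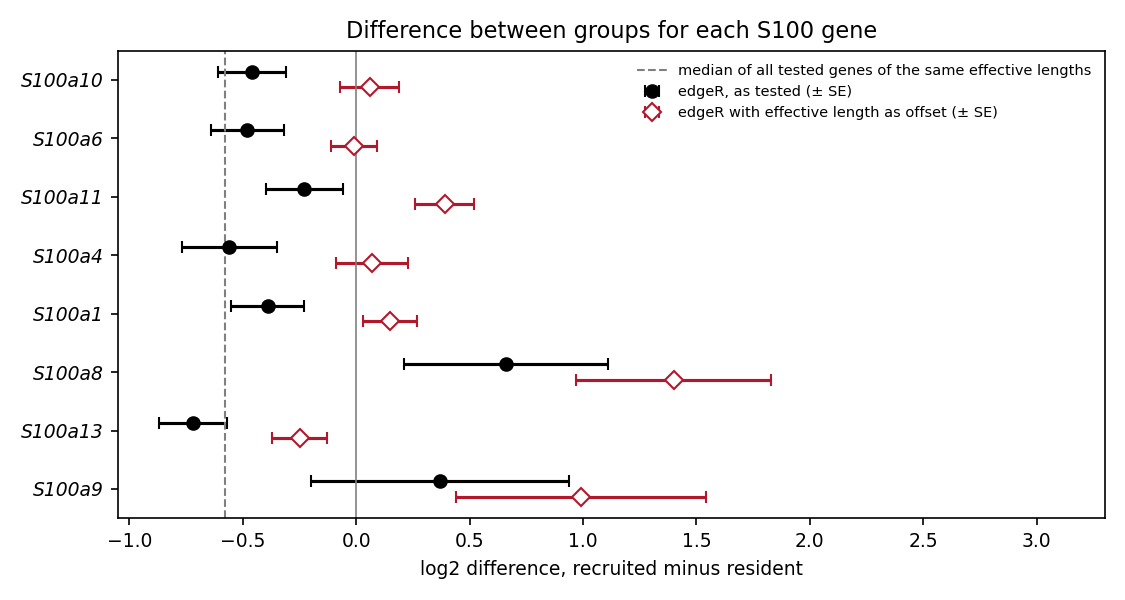
Log2 difference, recruited minus resident, of each S100 gene with its SE, from the fit as tested (black circles) and from the fit with an offset for effective length (open red diamonds). The dashed line is the median of -0.58 over the 333 tested genes of the same lengths, and S100a8 stands farthest from it in the fit as tested, by 1.24.

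The calprotectin subunits come first among the members. S100a8 stood at 29.0, 30.2 and 72.2 CPM in the resident replicates, in order, and at 106, 38.8 and 61.7 CPM in the recruited replicates; all later values keep this order. The groups overlapped, since resident replicate 3 exceeded recruited replicates 2 and 3. Means were 43.8 ± 24.6 and 69.0 ± 34.4 CPM (SD, n = 3), a log2 difference of 0.66 ± 0.45 SE that did not pass in edgeR (adjusted p = 0.509). This difference was 0.20 without recruited replicate 1 and 1.23 without resident replicate 3. S100a8 was the member farthest above the short-gene median, by 1.24 on the log2 scale.

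S100a9, the other subunit, was much scarcer. It was read at 4.68, 9.62 and 2.37 CPM in resident and at 7.46, 8.26 and 5.78 CPM in recruited libraries, on 52 to 187 expected counts. The group means of 5.56 ± 3.70 and 7.17 ± 1.27 CPM (SD, n = 3) overlapped in their libraries (log2 difference 0.37 ± 0.57 SE, edgeR adjusted p = 0.804). The difference was 1.02 without resident replicate 2 and 0.01 without resident replicate 3.

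The subunits did not keep a fixed proportion. Per length, S100a8 exceeded S100a9 by 10.02-fold, 5.10-fold and 48.5-fold in resident replicates 1 to 3 and by 23.4-fold, 7.75-fold and 17.4-fold in recruited replicates 1 to 3. Resident replicate 3 had the highest S100a8 of its group and the lowest S100a9 of all libraries. The log2 ratio of S100a9 to S100a8 counts averaged -3.07 ± 1.68 (SD, n = 3) among resident and -3.16 ± 0.83 among recruited libraries. An exact permutation test gave a 2-sided p of 1, and its smallest possible value with 3 against 3 is 0.1. Its difference of -0.09 lay between -1.02 and 0.62 when a library was left out.

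Neutrophil and monocyte markers are given beside these genes because both cell types store calprotectin. Of 18 neutrophil markers 9 were tested and none passed, 8 of them with a log2 difference above 0 and a list median of 1.34. The summed level of the 18 was 359 to 626 CPM in resident and 689 to 1160 CPM in recruited libraries, led by Clec4d and by Chil3, which is also on the monocyte list. Clec4d had a log2 difference of -0.03, and Chil3 ran from 33.9 CPM in resident replicate 1 to 690 CPM in recruited replicate 3. Lcn2, picked after its values were seen, was at 0, 0.0515 and 8.03 CPM in resident and 13.3, 1.34 and 27.0 CPM in recruited libraries, so it was highest in the 3 libraries with the most S100a8. Mmp8 and Mmp9, also picked after their values were seen, were not: in resident replicate 3 they stood at 0.0456 and 0.684 CPM, lowest of the 6 libraries, and in recruited replicate 2 at 63.1 and 65.7 CPM. The 12 monocyte markers were all tested, with a median of 0.55, none past the threshold, and sums of 3450 to 4899 CPM in resident and 4957 to 5508 CPM in recruited libraries. Their most abundant members per length were Hp and Fn1. Fn1 stood at averages of 1416 (resident) and 1875 (recruited) CPM and Hp at 513 and 826 CPM. Ccr2, a monocyte chemokine receptor gene named after its values were seen, lay the other way, at 1112, 739 and 1025 CPM in resident and 562, 476 and 417 CPM in recruited libraries, without overlap (log2 difference -0.98 ± 0.19 SE, edgeR adjusted p = 0.0933). Without overlap in CPM, 1 of the 12 monocyte markers lay higher in resident and 3 lay higher in recruited libraries. Among the 9 tested neutrophil markers these numbers were 0 and 2, the latter Mmp8 and Mmp9. Over all tested genes the shares were 12.6% and 12.2%. The sort left out Ly6G+ cells, and Ly6g, Ngp and Mpo had no count in any library. The part of monocytes and neutrophils in the S100a8 values was not tested.

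Most listed receptors of S100 proteins were read well enough to be tested. The list of 11 held 9 tested genes, none past the threshold, with 5 below and 4 above 0 and a median of -0.11. Cd14, the co-receptor of Toll-like receptor 4, was read at 1523 ± 143 FPKM in resident and 1862 ± 423 FPKM in recruited libraries (SD, n = 3). The scavenger receptor Cd36 stood at 655 ± 36.0 and 801 ± 148 FPKM, and Bsg, an immunoglobulin-family receptor bound by S100A9, at 370 ± 28.6 and 348 ± 22.7 FPKM. Ager, which encodes the S100 receptor RAGE, was barely read, at 0.0955 to 0.867 CPM in the 6 libraries and too low to be tested, and Mcam had no count in any library.

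S100a10, the annexin A2 partner, was the most abundant member per length, while S100a6 was higher in CPM in 5 of 6 libraries. S100a10 was read at 519, 684 and 674 CPM in resident and at 410.5, 454 and 502 CPM in recruited libraries. The groups did not overlap, with resident replicate 1 just above recruited replicate 3. The means of 626 ± 92.3 and 456 ± 46.0 CPM (SD, n = 3) were 1.37-fold apart (log2 difference -0.46 ± 0.15 SE, edgeR adjusted p = 0.199).

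Its partner Anxa2 stood at 1993 ± 100 and 1992 ± 216 FPKM (SD, n = 3; log2 difference in CPM -0.02 ± 0.13 SE, edgeR adjusted p = 0.967). The ratio of S100a10 to Anxa2 in FPKM was 0.577, 0.760 and 0.667 in resident and 0.514, 0.482 and 0.502 in recruited libraries, without overlap. Its log2 difference of -0.41 had an exact permutation p of 0.1 (2-sided), the smallest that 3 against 3 allows. Anxa2 has an effective length of 1189 bases and S100a10 one of 464, and the part of length in this ratio was not tested. The 9 annexins of the list were all tested and none passed, with a median of 0.04. Anxa1, the partner of S100A11, stood at 1796 ± 97.9 and 1688 ± 194 FPKM and the phosphatidylserine-binding Anxa5 at 1111 ± 116 and 1062 ± 71.4 FPKM.

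The annexin A2 complex of S100A10 also serves plasminogen activation at the cell surface. Of the 8 genes listed for that role and for the channels S100A10 carries, 3 were tested and none passed, with a median of 0.17. Plaur, the urokinase receptor, led with 373 ± 71.2 FPKM in resident and 468 ± 49.4 FPKM in recruited libraries (SD, n = 3). The plasminogen receptor gene Plgrkt stood at 120.4 ± 23.0 and 139 ± 7.03 FPKM. The activator gene Plat was listed at 0 in 3 of 6 libraries, and Plg and Htr1b had no count in any.

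S100a11, which binds annexin A1, showed the smallest difference from 0 among the members by log2. It was read at 277, 353 and 391 CPM in resident and at 291, 328 and 251 CPM in recruited libraries. The groups overlapped, and resident replicate 1 lay below 2 of the recruited libraries. Means of 340.1 ± 58.1 and 289.9 ± 38.2 CPM (SD, n = 3) gave a log2 difference of -0.23 ± 0.17 SE (edgeR adjusted p = 0.536).

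S100a4, which binds non-muscle myosin and is linked to cell motility, was read at 285, 421 and 330.3 CPM in resident and at 290.2, 232 and 182 CPM in recruited libraries. The groups overlapped through resident replicate 1 and recruited replicate 1, while resident replicate 2 was the highest of all. Means of 345 ± 69.6 and 235 ± 54.3 CPM (SD, n = 3) gave a log2 difference of -0.56 ± 0.21 SE (edgeR adjusted p = 0.242). S100a4 is also known as a fibroblast marker, and the 10 fibroblast markers summed to 25.7 to 58.5 CPM in resident and 8.83 to 15.9 CPM in recruited libraries. Of these 6 were tested and none passed, with a median of -1.84, and the most abundant, Dcn and Col3a1, averaged 12.3 and 18.8 CPM in resident libraries. In 2 of the 6 tested the resident libraries lay above the recruited ones in CPM without overlap, and in 0 the reverse. Those shares were 12.6% and 12.2% over all tested genes. The part of fibroblasts in the S100a4 values was not tested.

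S100a6, or calcyclin, was read at 551, 776 and 682 CPM in resident and at 532, 464 and 442 CPM in recruited libraries. The groups did not overlap, though resident replicate 1 and recruited replicate 1 were close. Means of 669.7 ± 113 and 479 ± 46.9 CPM (SD, n = 3) gave a log2 difference of -0.48 ± 0.16 SE (edgeR adjusted p = 0.192). Among 16 intracellular targets of S100 proteins, from myosin to the NADPH oxidase, 14 were tested and none passed, with 7 below and 7 above 0 and a median of -0.03. The oxidase subunits Cyba and Cybb stood at 3350.1 ± 379.5 and 201 ± 35.6 FPKM in resident and at 3194 ± 211 and 393 ± 91.5 FPKM in recruited libraries (SD, n = 3). The actin-binding gene Tagln2 stood at 588 ± 48.1 and 504 ± 49.5 FPKM.

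S100a1 and S100a13 share the 104-base stretch between their starts printed above. S100a1, best known for its action on calcium release in heart muscle, was read at 122, 164 and 147 CPM in resident and at 108, 121 and 101 CPM in recruited libraries. The groups did not overlap but touched, with resident replicate 1 at 121.5 and recruited replicate 2 at 121.4 CPM. Means of 144 ± 21.4 and 110.2 ± 10.5 CPM (SD, n = 3) gave a log2 difference of -0.39 ± 0.16 SE (edgeR adjusted p = 0.271).

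S100a13, which helps FGF1 and interleukin 1 alpha leave the cell, had the widest gap toward resident cells. It was read at 103, 126 and 122 CPM in resident and at 79.8, 65.3 and 68.2 CPM in recruited libraries, and the groups did not overlap. Means of 116.7 ± 12.4 and 71.1 ± 7.65 CPM (SD, n = 3) were 1.64-fold apart (log2 difference -0.72 ± 0.15 SE, edgeR adjusted p = 0.105). No source used here says whether counting was stranded, so near the starts of S100a1 and S100a13 reads of the opposite genes may not be separable.

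Of the genes tied to release with S100A13, 4 of 6 were tested and none passed, with a median of 0.36. Fgf1 and Syt1 had no count in any library. Il1a, its interleukin cargo, was read at 12.8, 6.59 and 33.8 CPM in resident and 49.8, 55.4 and 95.6 CPM in recruited libraries, without overlap (log2 difference 1.92 ± 0.55 SE, edgeR adjusted p = 0.161). Casp1, the inflammasome protease, stood at 88.3 ± 16.7 and 80.0 ± 9.28 FPKM and the pore gene Gsdmd at 74.1 ± 8.59 and 72.3 ± 6.01 FPKM (SD, n = 3).

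Of the 10 other S100 rows, 8 were too low to be tested. S100a2, S100a7a, S100g and S100z had no count in any library, where 3 counts would be 0.109 to 0.180 CPM. S100b, a marker of Schwann cells, had 0, 0, 7, 1, 2 and 0 counts in resident replicates 1 to 3 and recruited replicates 1 to 3. S100a3, S100a5 and S100a14 had at most 3, 13 and 2 counts in a library. Of 12 Schwann cell markers 4 were tested and none passed, with a median of 0.26 and sums of 246 to 314.5 CPM in resident and 253 to 553 CPM in recruited libraries, led by Pmp22 and Mbp.

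S100a16 and S100pbp were the 2 that were tested. S100a16 was read at 5.00, 1.39 and 7.71 CPM in resident and at 0.597, 0.573 and 0.889 CPM in recruited libraries, on 10 to 169 expected counts. The resident libraries lay above the recruited ones, though resident replicate 2 was closer to them. The log2 difference of -2.76 ± 0.88 SE, 6.80-fold, did not pass in edgeR (adjusted p = 0.188) and did in DESeq2 (adjusted p = 0.0319). It was -2.48 ± 0.90 SE with the offset for length. S100pbp, which encodes an S100P-binding protein and no S100 protein, was read at 3.91, 6.59 and 1.46 CPM and at 1.91, 1.34 and 3.56 CPM, with overlap (edgeR adjusted p = 0.670).

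Other EF-hand calcium sensors gave the only call among the 65 tested genes of the partner and sensor lists, of 87 listed. Over all tested genes 0.317% passed. Aif1, which encodes the macrophage actin-bundling protein Iba1, was read at 312, 375 and 347 CPM in resident and at 185, 115.4 and 133 CPM in recruited libraries, without overlap. It was higher in resident macrophages, with means of 345 ± 31.8 and 144 ± 36.0 CPM (SD, n = 3; a log2 difference of -1.26 ± 0.19 SE, edgeR adjusted p = 0.0493). It no longer passed in edgeR on leaving out resident replicate 2 (adjusted p = 0.108), resident replicate 3 (0.133), recruited replicate 1 (0.0587), recruited replicate 2 (0.164) or recruited replicate 3 (0.194). Nor did it pass in edgeR with a block for replicate number (adjusted p = 0.0694) or with the offset for length (log2 difference -0.87, adjusted p = 0.101). It also did not pass when limma was run on log2(FPKM + 1) without a filter (adjusted p = 0.115). Of 24 tested sensors 18 lay below 0, with a median of -0.16. The calmodulin gene Calm2 was read at 1471 ± 177 FPKM (SD, n = 3) among resident and 1173 ± 129 FPKM among recruited libraries, and the myosin light chain Myl6, a short transcript of 493 bases, at 1020.1 ± 172 and 649 ± 86.3 FPKM.

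The genes whose levels ran most like a member across the 6 libraries were taken from all 11353 other tested genes for the 4 most variable members. The measure is Pearson's r of log2 CPM over 6 libraries, and with so few libraries and so many genes it is only a ranking. For S100a8 they were Prps1l3 (r = 0.973), the zinc transporter gene Slc39a4 (0.968) and Gm20939 (0.966), the last at only 1.49 to 4.78 CPM. For S100a9 they were the peroxisomal import receptor gene Pex5 (0.996), Map4k5 (0.993) and Taf1c (0.990), and none of these is among those of S100a8. For S100a4 they were Fnbp1l (0.996), Foxk1 (0.991) and the lymphocyte receptor gene Btla (0.991). These were low, at 0.543 to 7.31, 1.04 to 5.45 and 0.247 to 7.87 CPM, against 182 to 421 CPM for S100a4. For S100a13 they were the vesicle tethering gene Trappc1 (0.995), BC147527 (0.993) and the dynein light chain gene Dynll1 (0.992).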

How the data were processed

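RNA from 6 libraries of sorted macrophages was compared, 3 resident and 3 recruited. Per the labels' protocols, cDNA came from the SMART-Seq v4 kit with 18 cycles of pre-amplification and Nextera XT libraries, sequenced paired-end in 2 runs; no label ties a library to a run, so run and group cannot be told apart. There are no molecular identifiers, so floors cover counting error only. The authors deposited expected counts per gene, not normalized, and FPKM per gene, which the authors divided by library size and by length. The submitters' processing notes name FastQC, Trimmomatic, STAR 2.5.3a, RSEM 1.2.28, DESeq2, edgeR and the build mm10, with no annotation or strand setting named.

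Of 24848 rows, 26 with a date for a symbol were left out (0.121 to 0.138% of each library). Expected counts were rounded. The test was edgeR 4.0.16 (R 4.3.3, quasi-likelihood F test, TMM, filterByExpr, robust, group alone in the model). P-values were adjusted by Benjamini-Hochberg across the whole table, and 0.05 was the threshold. SE is the absolute log2 difference divided by the square root of F. Log2 CPM has a prior count of 2. Effective length is the median over libraries of expected counts divided by FPKM and by the library total. Each library is a pool of 3 mice, and the test treated libraries as independent. The labels do not say whether resident and recruited libraries of the same number share mice. Alternatives were other scalings and filters, DESeq2 1.42.0, limma 3.58.1 on counts and on log2(FPKM + 1) or log2(FPKM + 0.1), a replicate block, leaving out each library and, added later, a length offset (lowess span 0.3).

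The members and gene lists were chosen with earlier results of these data known, so lists are described by counts and medians without a test. Named genes are the members, the other S100 genes with a count, list genes past the threshold, the most abundant of each list, and the 3 nearest genes of the 4 most variable members. Some genes that this rule names are not reported here. Lcn2, Mmp8, Mmp9, Ccr2, Cd68, Itgam, Ager and list genes at 0 were added after their values were seen. The script was tested on 3 simulated tables of this comparison (median 11036 genes, 200 changed), where edgeR called 30.1, 67.4 and 79.8% of 2-fold, 4-fold and 8-fold changes.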

Additional observations from a re-analysis of the deposited data

How the results depend on the processing

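Leaving length aside, each member kept the sign of its log2 difference in every alternative in which it was tested, and 3 member results moved past the threshold: S100a6 and S100a13 in DESeq2, and S100a13 without resident replicate 1 (values in the report). With the offset for effective length, the difference turned to 0.15 for S100a1, 0.07 for S100a4, 0.06 for S100a10 and 0.39 for S100a11, as that fit removes the trend with length. The count of members past the threshold was 0, but 2 in DESeq2 and 0 to 1 with a library left out. Over all genes 36 passed, against 58 with no filter, 73 with a filter of 10 CPM, 650 in DESeq2, 76 in limma-voom with library weights, and 97, 63 and 8 in limma on log2(FPKM + 1), on log2(FPKM + 0.1) and on log2(FPKM + 1) with no filter. Leaving out a library gave 0 to 580, with 0 without recruited replicate 2 and 580 without resident replicate 1. Of the partner and sensor lists 1 gene passed, against 7 in DESeq2, 0 in limma on unfiltered log2(FPKM + 1), 0 with the replicate block (Aif1 adjusted p = 0.0694), 0 with the length offset and 0 to 3 with a library left out. The cause of these changes was not tested. The difference in the log2 ratio of S100a9 to S100a8 turned positive on leaving out resident replicate 1 (0.13) or 2 (0.62) or recruited replicate 1 (0.24) or 3 (0.04), and ranged from -1.02 to 0.62. That of S100a10 to Anxa2 stayed between -0.51 and -0.31.

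The labels share replicate numbers but nothing ties equal numbers to shared mice, and the deviations of same-numbered libraries correlated at 0.0155, 0.0626 and 0.0488. With the replicate block 28 genes and 0 members passed, and not every library correlated best with its own number. The resident libraries had a biological coefficient of variation of 0.605 and the recruited ones of 0.286. Of simulated 2-fold changes 30.1% were called, and all 8 members differed by less than 2-fold. The simulation gave each gene the same spread in both groups and held no trend with length, so it does not give the rate for the members. S100a9 was too low for the filter of 10 CPM and has no value there.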
